A study of Mus musculus with 4 samples.

Results

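B cells carry surface receptors that hold antigen receptor signaling in check. Most of them, among them CD22, CD72, PIR-B, Siglec-G and the Fc receptor FcγRIIB, bear immunoreceptor tyrosine-based inhibition motifs, which Src family kinases phosphorylate and to which phosphatases then bind. The tyrosine phosphatase SHP-1, encoded by *Ptpn6*, removes phosphate from the kinases and adaptors of the receptor pathway, while the lipid phosphatase SHIP-1, encoded by *Inpp5d*, removes the phosphoinositide on which BTK and PLCγ signaling depend. In mature B cells these molecules set the threshold for activation, and many of them are first made in the course of B cell development.

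The genes described here are 7 inhibitory coreceptors (*Cd22*, *Cd72*, *Fcgr2b*, *Pirb*, *Siglecg*, *Lair1* and *Cd5*) and 3 phosphatases (*Ptpn6*, *Inpp5d* and *Ptpn22*). They were taken by name, and all 10 were among the 55359 gene identifiers of the count table. RNA was sequenced from T8, a pB-ALL cell line with the genotype Irf4-/-, derived from the primary tumor of 1 mouse and grown with IL-7. The cells received a retrovirus coding for GFP alone (EV-RV) or for GFP and IRF4 (IRF4-RV), and viable cells were compared 24 h later, with 2 biological replicates per group. Both groups thus share the Irf4-/- genotype as labelled, and both received a vector. The libraries come from 1 line, so the p-values measure the spread between cultures of that line. The question addressed is which transcripts differ when IRF4 is put back.

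Between 31230223 and 37817752 reads per library were assigned to genes, so that 3 counts, used here as the detection limit, equal 0.0793 to 0.0961 CPM (counts scaled to the library size). For this limit the library size was the raw total, whereas all other CPM also use a scaling factor per library. This limit covers counting error only. *Irf4* rose with IRF4-RV, from 8070 and 7600 counts to 95578 and 90693 (log2 fold change 3.46, SE 0.0907, edgeR adjusted p = 1.14e-06), where vector and endogenous reads are not separated. Which part of the locus the counts with EV-RV came from was not examined, so they do not check the deletion. The cells held the pre-B cell markers at a summed 5600 and 5948 CPM with EV-RV, against 4407 and 4375 CPM with IRF4-RV, although *Rag1* had at most 1 count in any library. Of 9 pre-B markers tested, 4 were lower with IRF4-RV (*Vpreb1*, *Igll1*, *Enpep* and *Il7r*) and 0 higher, also 0 at an unadjusted p under 0.05 and 0 with DESeq2. IRF4-RV replicate 2 stood apart in stromal markers, with a summed 221 CPM against 47.0 to 89.8 CPM in the other 3 libraries. The line had been established on ST2 stromal cells and later grew without them, and the source of these transcripts was not tested. Markers of T and NK cells, macrophages, granulocytes, dendritic cells and erythroid cells summed to at most 8.53 CPM in any library. In these lists *Cd8a*, *Adgre1*, *Ctsg* and *Itgax* had 0 counts in all 4. Others were detected, such as *Klrb1c* at 33 to 54 counts, *Csf3r* at 22 to 35 and *Zbtb46* at 24 to 37. Macrophage markers summed to 1.53 and 1.49 CPM with EV-RV, against 8.53 and 7.47 CPM with IRF4-RV, most of the difference being *Mrc1*, and 8 of these 11 markers had at most 3 counts in every library. Plasma cell markers summed to 140.3 and 163.5 CPM with EV-RV and to 234.0 and 263.2 CPM in the IRF4-RV libraries, most of it *Xbp1*, and its members went both ways, with *Xbp1* and *Prdm1* higher and *Sdc1* lower (log2 fold changes 0.82, 2.13 and -0.81). Dendritic cell markers summed to 1.59 and 1.33 CPM in the EV-RV libraries and to 4.22 and 4.53 CPM in the IRF4-RV libraries, most of the difference being *Flt3*. T and NK cell markers summed to 4.88 and 5.33 CPM, against 6.998 and 6.62 CPM, most of the difference being *Cd28*. It had 112 and 129 counts with EV-RV, against 197 and 183 with IRF4-RV (log2 fold change 0.54, edgeR adjusted p = 0.073), and was not called with DESeq2.

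With IRF4-RV, *Siglecg*, *Fcgr2b* and *Cd22* rose, and none of the other listed genes passed the test in either direction. *Siglecg*, which encodes a sialic acid-binding receptor that restrains calcium signaling, rose 6.12-fold. *Fcgr2b*, encoding the inhibitory receptor for IgG, rose 1.80-fold, and *Cd22*, encoding the sialic acid-binding partner of the antigen receptor, rose 1.67-fold. The phosphatases to which these receptors couple, *Ptpn6* and *Inpp5d*, were both abundant and differed by less than the spread between replicates. In bulk RNA, fewer cells of a type and less RNA per cell cannot be told apart.

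Of the 10 genes, 8 passed the filter on low counts, and 3 of these were called at an FDR of 0.1 by the quasi-likelihood test of edgeR, with p-values adjusted over all genes tested (Benjamini-Hochberg). This is 37.5% of those tested, beside 29.7% of all 14637 genes tested, so the share called was close to that of all genes. In the upward direction 3 of 8 were called, beside 16.0% of all genes, and in the downward direction 0 of 8, beside 13.7% (also 0 at an unadjusted p under 0.05 and 0 with DESeq2). The difference from all genes was not tested. Over the 8 genes, the median log2 fold change was -0.01, near the 0.01 of all genes. Of the coreceptors, 3 of 5 tested were higher with a median of 0.74. Of the phosphatases, 0 of 3 were called, 0 of them at an unadjusted p under 0.05 and 0 with DESeq2, with a median of -0.05. Among all genes called, 53.8% were higher with IRF4-RV, and 37.8% when counts were scaled by library size only. The listed genes were called the same way under that scaling.

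The 300 bases around the RefSeq start of the coreceptor genes that rose are shown because IRF4 is known to bind GAAA-type elements, alone and with ETS partners. Each runs 5′ to 3′ on the gene's own strand, from 250 bases before the start to 50 after it (RefSeq, GRCm38.p6). *Siglecg* lies at chr7:43407989-43408288 on the plus strand, *Fcgr2b* at chr1:170976022-170976321 on the minus strand and *Cd22* at chr7:30878979-30879278 on the minus strand. Capitals mark the letters of the composite ETS and IRF element, read on the other strand.
Siglecg: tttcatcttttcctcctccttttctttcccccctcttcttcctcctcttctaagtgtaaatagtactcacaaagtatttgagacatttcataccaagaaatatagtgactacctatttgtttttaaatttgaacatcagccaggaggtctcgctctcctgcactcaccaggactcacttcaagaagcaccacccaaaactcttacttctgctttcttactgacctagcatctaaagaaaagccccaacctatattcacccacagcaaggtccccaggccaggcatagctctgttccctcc
Fcgr2b: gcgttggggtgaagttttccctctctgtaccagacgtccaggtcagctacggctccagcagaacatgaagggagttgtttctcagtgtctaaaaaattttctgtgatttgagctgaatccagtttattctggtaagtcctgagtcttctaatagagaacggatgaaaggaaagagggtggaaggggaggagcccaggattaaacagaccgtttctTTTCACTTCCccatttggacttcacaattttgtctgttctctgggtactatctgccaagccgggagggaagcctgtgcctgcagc
Cd22: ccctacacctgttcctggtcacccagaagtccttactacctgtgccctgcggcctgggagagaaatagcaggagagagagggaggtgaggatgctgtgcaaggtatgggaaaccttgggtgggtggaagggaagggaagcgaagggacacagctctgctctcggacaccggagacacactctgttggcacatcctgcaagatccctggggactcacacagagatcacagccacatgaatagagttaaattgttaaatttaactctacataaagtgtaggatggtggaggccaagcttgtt

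The composite element (GGAA, 2 bases of any kind, then GAAA) was searched on both strands of 12 windows, which cover all 10 genes, *Siglecg* and *Ptpn22* having 2 windows each. It was found in 1 window, that of *Fcgr2b*, at chr1:170976097-170976106, 35 to 26 bases before the RefSeq start. The gene span given below for *Fcgr2b* reaches chr1:170976547 on this minus strand, so the match lies inside that span. The window of *Cd22* likewise lies inside its gene span, which reaches chr7:30880342. Of 32851 windows of the same length across all genes in the table, 2.72% held it. The interferon response type element (GAAA, 2 bases of any kind, then GAAA) was in 0 of the 12 windows and in 3.44% of all windows. These matches describe the letters in these windows only, and binding was not measured.

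*Siglecg* (ENSMUSG00000030468, chr7:43408204-43418358 on the plus strand of GRCm38) had 262 and 255 counts in the EV-RV libraries and 1615 and 1816 in the IRF4-RV libraries. Both IRF4-RV libraries lay far above both EV-RV libraries, and the replicates within each group were close. Its level went from 7.97 ± 0.166 CPM (SD, n = 2) to 48.8 ± 1.55 CPM (SD, n = 2). The log2 fold change was 2.61 (95% interval 2.39 to 2.84, SE 0.0976, edgeR adjusted p = 2.84e-06). Among the 8 genes tested it had the highest log2 fold change, and leaving out any single library kept it at 2.58 to 2.64.

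*Fcgr2b* (ENSMUSG00000026656, chr1:170958617-170976547, minus strand) had 726 and 677 counts with EV-RV, against 1349 and 1388 with IRF4-RV. The groups did not overlap. Its level went from 21.6 ± 0.203 CPM (SD, n = 2) to 39.0 ± 1.21 CPM (SD, n = 2). This was a log2 fold change of 0.85 (95% interval 0.64 to 1.06, SE 0.0888, edgeR adjusted p = 0.00047). *Gm38204*, annotated antisense across 155 of its exon bases, had at most 2 counts in any library.

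*Fcgr3*, which encodes the activating low-affinity receptor for IgG, moved the opposite way. It had 220 and 191 counts with EV-RV, against 79 and 84 with IRF4-RV, a log2 fold change of -1.45 (SE 0.173, edgeR adjusted p = 0.000952). Per exon length, *Fcgr2b* stood to *Fcgr3* at 0.989 and 1.06 in the EV-RV libraries and at 5.12 and 4.95 in the IRF4-RV libraries. On this length, the inhibitory receptor transcript was thus about level with the activating one in control cells and exceeded it in both IRF4-RV libraries. With the longest annotated transcript as the length, *Fcgr2b* was at 10.9 instead of 8.37 TPM (level per length) with EV-RV. With IRF4-RV it was at 18.2 instead of 13.9 TPM. The ratio to *Fcgr3* was not computed on that length. Both genes are similar in the sequence of their extracellular part, so some reads may be divided between them. The other IgG receptors, *Fcgr1* and *Fcgr4*, had at most 2 counts in any library, and *Fcer1g*, the signaling chain of the activating receptors, had 0 counts with EV-RV, against 3 and 5 with IRF4-RV.

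*Cd22* (ENSMUSG00000030577, chr7:30865402-30880342, minus strand) had 3880 and 2959 counts with EV-RV, against 6051 and 6301 with IRF4-RV. The EV-RV libraries differed more from each other than the IRF4-RV libraries did, but both were below them. Its level went from 105.1 ± 15.9 CPM (SD, n = 2) to 175.9 ± 3.96 CPM (SD, n = 2). The log2 fold change was 0.74 (95% interval 0.50 to 0.99, SE 0.106, edgeR adjusted p = 0.00222), and leaving out any single library gave 0.60 to 0.90. *Gm29439*, annotated antisense across 479 of its exon bases, had 0 counts in all 4 libraries. Per exon length, *Siglecg* stood to *Cd22*, its relative among sialic acid-binding receptors, at 0.0708 and 0.0904 with EV-RV, against at 0.28 and 0.302 with IRF4-RV.

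The differences were about as large without the library that stood apart in stromal markers. Without IRF4-RV replicate 2, the log2 fold change was 2.58 for *Siglecg*, 0.89 for *Fcgr2b* and 0.77 for *Cd22*, and each was still called. The sums of pre-B, plasma, macrophage, dendritic and T and NK cell markers given above also separated the groups. So did granulocyte markers, at 1.17 and 1.27 CPM with EV-RV, against 0.738 and 0.961 CPM with IRF4-RV. The part of all these markers in the differences was not tested.

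**Figure D1:**
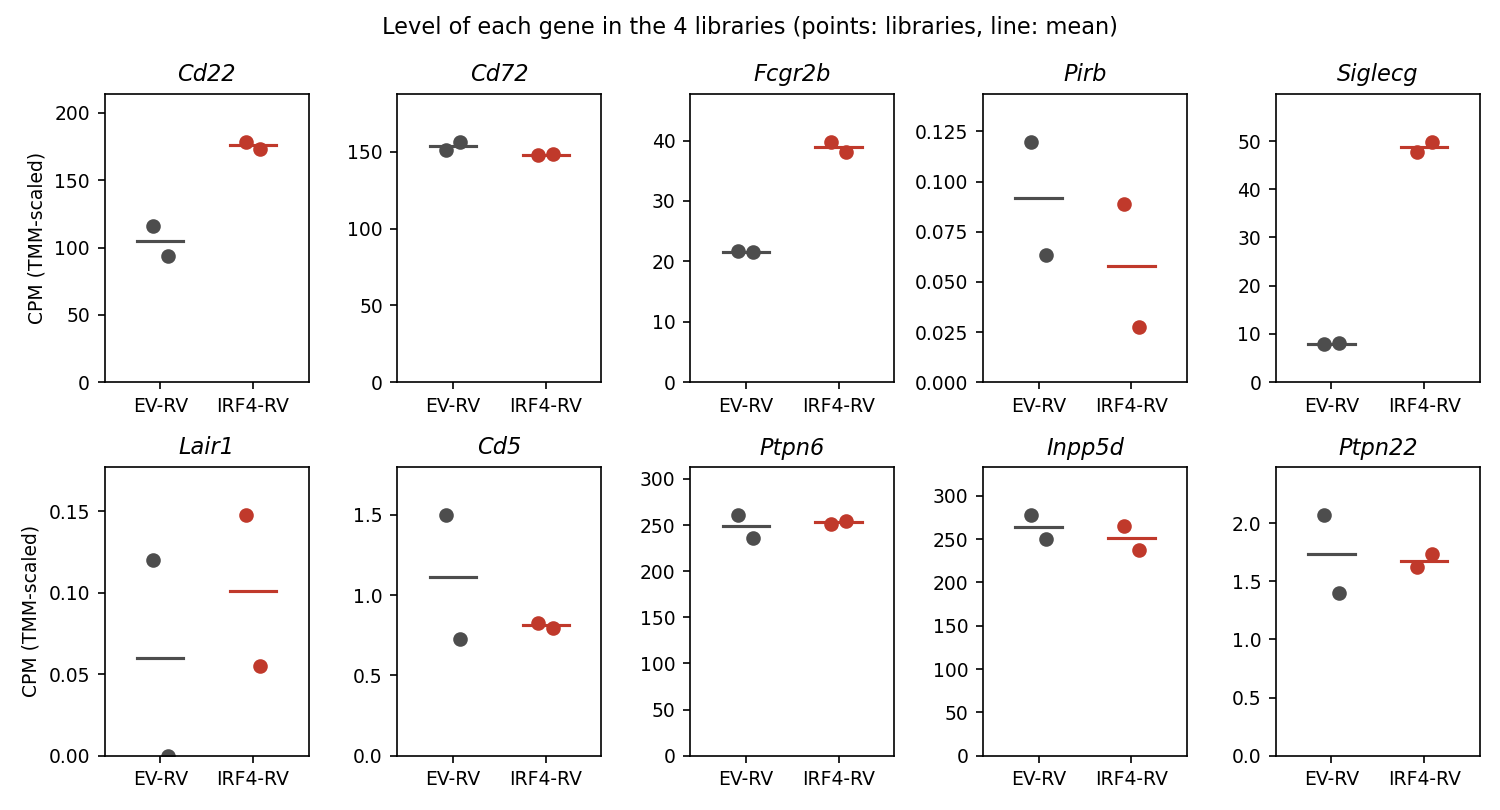
Level of each of the 10 genes in CPM (vertical axis, linear from 0 and scaled separately in each panel) in the 2 EV-RV and 2 IRF4-RV libraries, with points for libraries and a line for the group mean. Both IRF4-RV libraries lie above both EV-RV libraries for *Cd22*, *Fcgr2b* and *Siglecg*. The panels for *Pirb* and *Lair1* rest on at most 5 counts per library.

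*Cd72*, encoding a lectin-like coreceptor that recruits SHP-1 and binds semaphorin 4D, was not called. It had 151.1 and 156.7 CPM with EV-RV, against 147.8 and 148.6 CPM with IRF4-RV. The groups did not overlap but were close, with a log2 fold change of -0.05 (95% interval -0.22 to 0.11, edgeR adjusted p = 0.641). *Cd72* (ENSMUSG00000028459, chr4:43446462-43454628, minus strand) shares 1423 exon bases with *Tesk1* on the opposite strand, which had 565 to 634 counts per library. Whether counting used the strand is not given in the sources used here, so reads from the shared bases cannot be told apart.

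*Cd5*, which encodes a glycoprotein that dampens antigen receptor signaling in T cells and B-1a cells, was close to the low end of what could be tested. It had 50 and 23 counts with EV-RV, against 28 and 29 with IRF4-RV. The EV-RV libraries lay on both sides of the IRF4-RV libraries in CPM. Its log2 fold change was -0.46 with a wide interval (95% interval -1.46 to 0.54, edgeR adjusted p = 0.504), and it became 0.14 without EV-RV replicate 1. The interval for *Cd5* (ENSMUSG00000024669, chr19:10717116-10739002, minus strand) covers both a fall and a rise, and no difference was detectable at this depth.

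*Pirb*, encoding an inhibitory receptor for MHC class I, and *Lair1*, encoding an inhibitory receptor for collagens, did not pass the filter. *Pirb* (ENSMUSG00000058818, chr7:3711409-3720391, minus strand) had 4 and 2 counts with EV-RV, against 3 and 1 with IRF4-RV. *Lair1* (ENSMUSG00000055541, chr7:4003402-4063204, minus strand) had 4 and 0 counts with EV-RV, against 5 and 2 with IRF4-RV. Their counts lay on both sides of the 3-count limit, at 5 or fewer in every library, and no difference was detectable at this depth. *Pirb* belongs to a cluster of near-identical genes among which reads can be divided. Together with *Pira2*, *Lilra6*, *Gm15922*, *Gm15448* and *Gm14548* it had 13 and 2 counts with EV-RV, against 4 and 1 with IRF4-RV, so the cluster as a whole was also near the limit.

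*Ptpn6* (ENSMUSG00000004266, chr6:124720707-124738714, minus strand), encoding SHP-1, had 8703 and 7448 counts with EV-RV, against 8507 and 9263 with IRF4-RV. Both IRF4-RV libraries, at 251.2 and 254.4 CPM, lay between the EV-RV libraries, at 260.8 and 236.2 CPM. The log2 fold change was 0.02 (95% interval -0.15 to 0.20, edgeR adjusted p = 0.859), an interval that corresponds to 0.898-fold to 1.15-fold. *Gm20531*, antisense across 195 of its exon bases, had at most 6 counts in any library. *Ptpn11*, encoding the related phosphatase SHP-2, had 96.5 ± 1.79 CPM with EV-RV and 91.9 ± 9.08 CPM with IRF4-RV (SD, n = 2) and was not called (log2 fold change -0.07, edgeR adjusted p = 0.626). Per exon length, *Ptpn6* exceeded *Ptpn11* 7.32 and 6.46 times with EV-RV, against 6.83 and 7.96 times with IRF4-RV, ranges that overlap.

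*Inpp5d* (ENSMUSG00000026288, chr1:87620312-87720507, plus strand), encoding SHIP-1, which FcγRIIB recruits, had 277.6 and 249.6 CPM with EV-RV, against 265.1 and 236.9 CPM with IRF4-RV. The groups overlapped. Its log2 fold change was -0.07 (95% interval -0.28 to 0.13, edgeR adjusted p = 0.624), which corresponds to 0.826-fold to 1.10-fold. Per exon length it was about level with *Inppl1*, encoding the related SHIP-2, at 1.01 and 0.987 with EV-RV, against 0.964 and 0.927 with IRF4-RV.

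*Ptpn22* (ENSMUSG00000027843, chr3:103859795-103912247, plus strand), encoding a phosphatase of Src and Syk family kinases, was low. It had 69 and 44 counts with EV-RV, against 55 and 63 with IRF4-RV, and the groups overlapped. The log2 fold change was -0.05 (95% interval -0.74 to 0.65, edgeR adjusted p = 0.932), so that changes up to about 0.599-fold or 1.56-fold remained within the interval. It became 0.26 without EV-RV replicate 1, still not called.

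**Figure D2:**
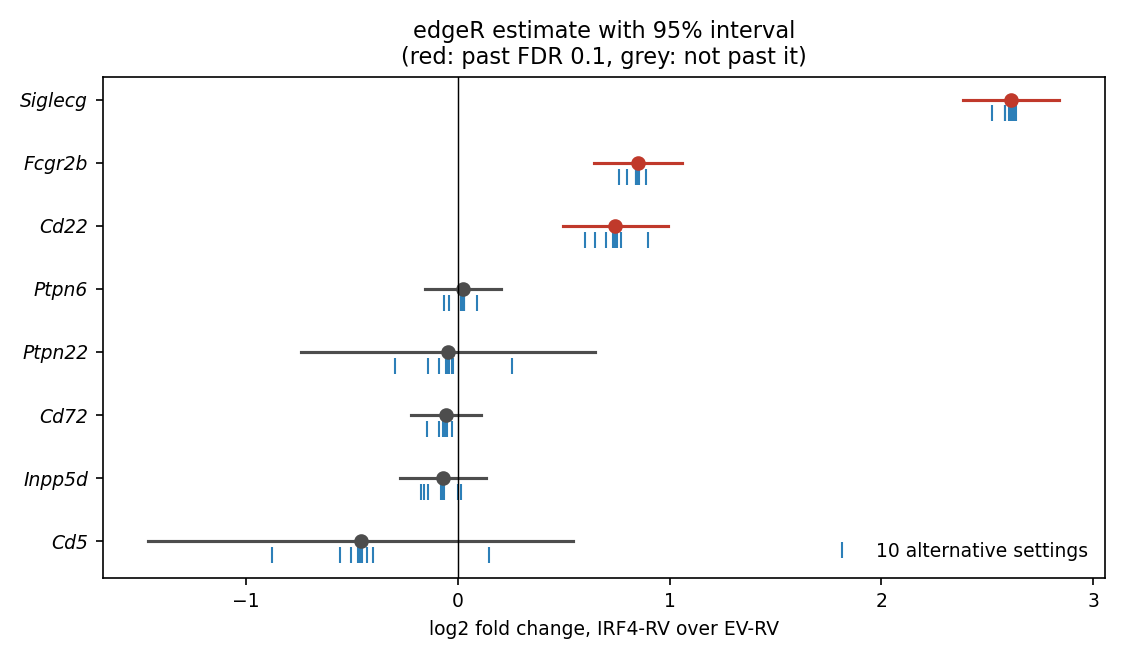
Log2 fold change of IRF4-RV over EV-RV (horizontal axis) for the 8 genes tested, with the edgeR estimate as a point and its 95% interval as a line, red where past the FDR of 0.1 and grey where not. Blue ticks give the estimates under 10 alternative settings. The intervals of *Siglecg*, *Fcgr2b* and *Cd22* lie above 0, those of the other 5 genes include 0, and the ticks of *Cd5*, *Ptpn6*, *Inpp5d* and *Ptpn22* fall on both sides of 0.

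Levels of different genes were set side by side as TPM (counts over exon length, scaled to the same total in each library). With EV-RV the order was *Ptpn6* at 199.0 ± 24.1 TPM, *Cd72* at 100.7 ± 2.57, *Inpp5d* at 77.8 ± 9.80, *Cd22* at 46.9 ± 9.44, *Fcgr2b* at 8.37 ± 0.506, *Siglecg* at 3.71 ± 0.112, *Ptpn22* at 0.577 ± 0.186 and *Cd5* at 0.513 ± 0.273 (SD, n = 2 each). *Ptpn22* and *Cd5* did not differ beyond their spread over exon length, whereas with the longest annotated transcript as the length *Ptpn22* was at 1.13 and *Cd5* at 0.675 TPM. *Pirb* and *Lair1* came last, at 0.0464 and 0.0186 TPM. *Ptpn6* was thus the most abundant of these transcripts per length in control cells, and *Cd72* the most abundant coreceptor.

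With IRF4-RV, *Ptpn6* at 185.9 ± 2.52 TPM and *Cd72* at 89.2 ± 1.66 TPM stayed first and second. *Cd22*, at 71.9 ± 3.24 TPM, and *Inpp5d*, at 68.1 ± 6.93 TPM, then did not differ beyond their spread, and with the longest annotated transcript as the length *Inpp5d* stayed above *Cd22*, at 84.0 against 73.1 TPM. *Siglecg* passed *Fcgr2b*, at 20.9 ± 0.192 against 13.9 ± 0.744 TPM. With the longest transcript this was 20.2 against 18.2 TPM. *Ptpn22* and *Cd5* stayed low, at 0.51 ± 0.0114 and 0.34 ± 0.0166 TPM, or at 1.004 and 0.449 TPM with the longest transcript.

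**Figure D3:**
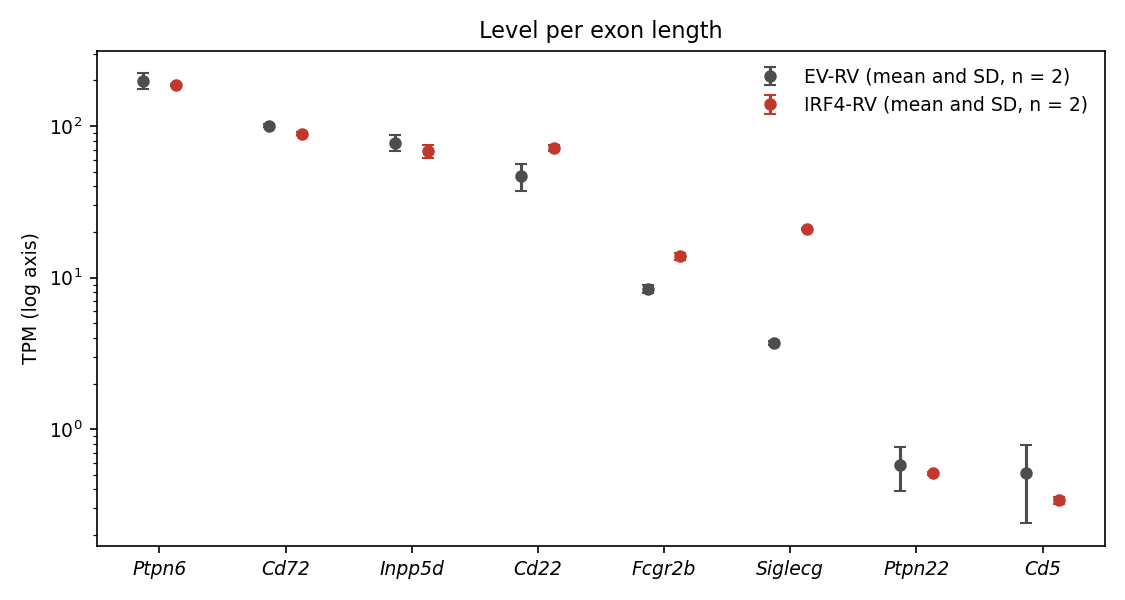
Level per exon length in TPM (vertical log axis) of the 8 genes tested, with the mean and SD of 2 EV-RV libraries in grey and of 2 IRF4-RV libraries in red. *Siglecg* lies below *Fcgr2b* with EV-RV and above it with IRF4-RV, and *Cd22* comes level with *Inpp5d*.

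Other genes of the inhibitory pathway were described by lists, beside the shares of all genes called given above. Of 18 other inhibitory receptors, 10 were tested, 6 were higher and 2 lower with IRF4-RV, with a median log2 fold change of 1.08. The numbers called and the median include *Pdcd1* and *Vsir*, which passed the low-count filter through their IRF4-RV libraries. *Pdcd1* had 12 and 4 counts with EV-RV, against 43 and 60 with IRF4-RV. With at least 10 counts required in every library, 6 receptors were called in all, instead of 8. *Pecam1*, an adhesion receptor with inhibition motifs, rose from 941 and 765 counts to 4974 and 4506 (log2 fold change 2.37, SE 0.118, edgeR adjusted p = 1.37e-05). *Ceacam1*, an adhesion receptor that also recruits SHP-1, rose from 554 and 542 counts to 1767 and 1604 (log2 fold change 1.51). *Cd300lf*, a lipid-binding receptor, rose from 31 and 38 counts to 125 and 117 (log2 fold change 1.69). *Milr1*, which encodes the inhibitory receptor Allergin-1 of mast cells, fell from 779 and 793 counts to 420 and 494 (log2 fold change -0.90, SE 0.105, edgeR adjusted p = 0.000821). *Vsir* was chosen after its values were seen. It had 0 and 1 counts with EV-RV, against 57 and 54 with IRF4-RV, where its fitted value depends on the prior count and is no bound. Of the 8 receptors not tested, 3 had 0 counts in all 4 libraries and the other 5 had at most 15 in any.

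Of 13 other phosphatases tested, 3 were higher and 2 lower, with a median of 0.01, and 3 in all were called without IRF4-RV replicate 2. *Ptprj* (CD148) rose with a log2 fold change of 0.79 and *Ptprc* (CD45) with 0.53, from 6333 and 4963 counts to 9020 and 8531. Both are receptor phosphatases known for activating Src family kinases and are thus not only inhibitors of the antigen receptor. *Ubash3b* fell by 0.53 and *Ubash3a* by 0.31 on the log2 scale. They encode phosphatases of the STS family that dampen receptor signaling. The median lay near that of all genes.

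Of 15 kinases, adaptors and ligases tested that act in inhibition, 6 were higher and 0 lower (0 at an unadjusted p under 0.05 and 0 with DESeq2), with a median of 0.10. The 6 had log2 fold changes from 0.26 to 0.46. *Cblb* and *Cbl*, which encode ubiquitin ligases, rose by log2 fold changes of 0.46 and 0.28, and the adaptors *Sla* and *Shc1* by 0.31 and 0.27. *Shc1* also acts in Ras activation. *Lyn*, the Src family kinase that phosphorylates inhibition motifs and also starts antigen receptor signaling, had a log2 fold change of 0.27 (SE 0.0791, edgeR adjusted p = 0.0447), and *Csk*, which restrains Src family kinases, had 0.10 (edgeR adjusted p = 0.329). The number called rested on single libraries and on the scaling. It was 1 without IRF4-RV replicate 1, 3 without IRF4-RV replicate 2 and 2 with library size only.

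Of 15 activating counterparts listed, 9 were matched in the table, such as the activating Fc receptors, and 4 of these were tested, with 1 lower, *Fcgr3*, and 0 higher (1 at an unadjusted p under 0.05, and 0 with DESeq2). *Pira2*, the activating relative of *Pirb*, had 4 counts in 1 EV-RV library and 0 in the other 3.

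Of 18 tested genes for ligands of these receptors or for enzymes that make or trim them, 8 were higher and 1 lower, with a median of 0.26. *Cmah*, which makes the N-glycolyl form of sialic acid that mouse CD22 binds best, rose from 763 and 477 counts to 2365 and 2076 (log2 fold change 1.74, SE 0.188, edgeR adjusted p = 0.000569). *St6gal1*, which links the sialic acid CD22 recognizes, had a log2 fold change of 0.27 (SE 0.0708, edgeR adjusted p = 0.0308). *Tnfrsf14*, the ligand of the inhibitory receptor BTLA, rose from 137 and 112 counts to 265 and 272 (log2 fold change 0.996). *Btla* itself, in the list of other inhibitory receptors, fell from 691 and 650 counts to 471 and 511 (log2 fold change -0.56, edgeR adjusted p = 0.00499). The 1 lower gene among the ligands was *Sema4d*, whose product CD72 binds (log2 fold change -0.33, edgeR adjusted p = 0.0391). *B2m* and *H2-D1*, components of MHC class I, rose by 0.62 and 0.40, the latter with reads that near-identical class I genes such as *H2-K1* may share. *Col1a1* and *Col1a2*, collagen ligands of LAIR-1, are also stromal markers and were highest in IRF4-RV replicate 2, at 2265 and 3154 counts, and neither was called.

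Of 17 tested genes for B cell receptor activation, 5 were higher and 3 lower, with a median of 0.20. *Blk*, a Src family kinase of B cells, rose from 1334 and 1163 counts to 4666 and 5167 (log2 fold change 1.86, SE 0.0823, edgeR adjusted p = 7.54e-06). *Blnk* and *Pik3ap1*, adaptors that link the receptor to phospholipase and to PI3 kinase, rose by 1.04 and 1.09 on the log2 scale, and *Rasgrp3*, an activator of Ras, rose by 1.45 from 32 and 35 counts to 100 and 99. Some genes on the activating side thus also rose, while *Bank1*, *Tec* and *Pik3cd* fell by 0.63, 0.37 and 0.30 on the log2 scale. The 4 genes given as rising were named for having the largest changes in the list. Their log2 fold changes lay above those of *Cd22* and *Fcgr2b* and below the 2.61 of *Siglecg*. The remaining gene called higher in the list, *Dapp1*, rose by 0.57 on the log2 scale, below all of these coreceptors. Differences between genes were not tested. The signaling chains *Cd79a* and *Cd79b* were not called (log2 fold changes of -0.01 and -0.01).

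**Figure D4:**
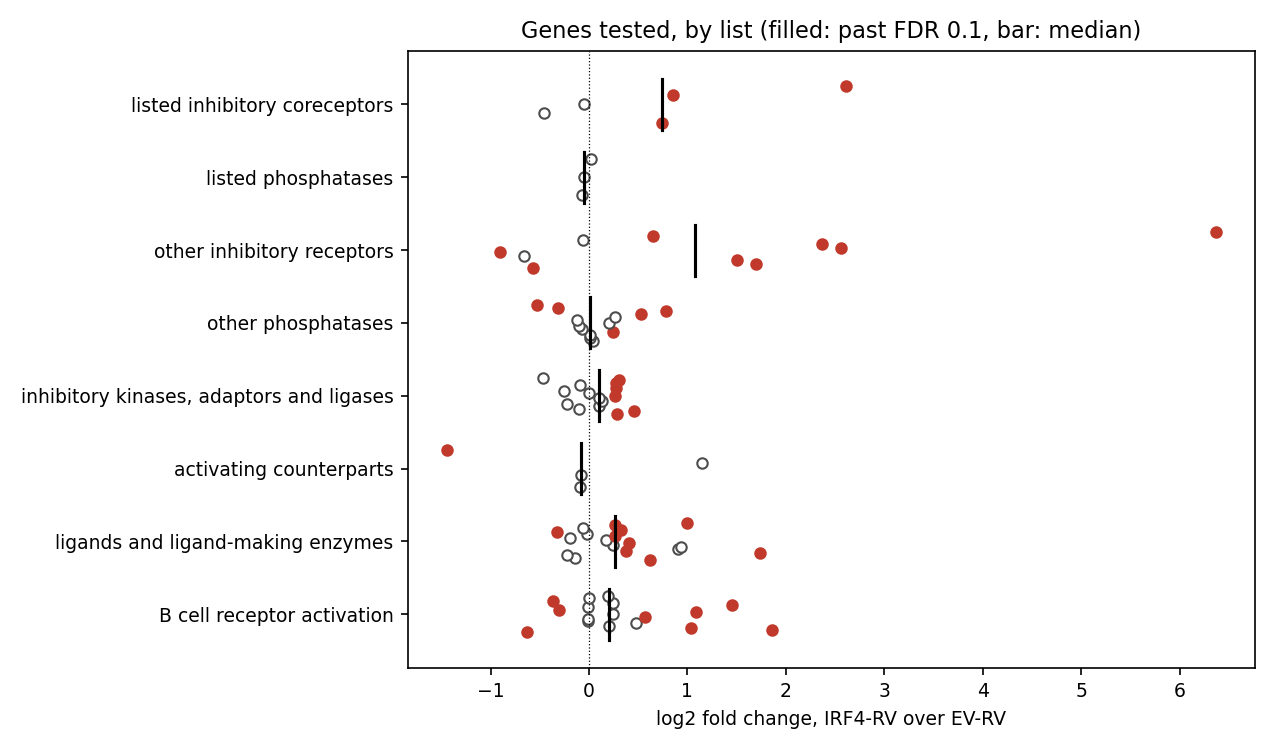
Log2 fold change of IRF4-RV over EV-RV (horizontal axis) of the genes tested in each list (rows), filled red where past the FDR of 0.1 and open where not, with a bar at the median of the list. Among the listed coreceptors, *Siglecg*, *Fcgr2b* and *Cd22* lie above the phosphatases, which are around 0. The coreceptors *Cd72* (-0.05) and *Cd5* (-0.46) do not. The point at 6.37 is *Vsir*, with 0 and 1 counts in the EV-RV libraries.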

How the data were processed

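Per the study's methods and the labels, total RNA was sequenced from NEBNext Ultra II libraries, reads were aligned to GRCm38 with STAR 2.4.0j and counted per gene with featureCounts, and the authors deposited raw counts without normalization for 4 libraries. How strand and multiply aligned reads were treated is not given in the sources used here. The protocol text of the labels names T11 cells, whereas titles and tissue name T8, and the libraries were used as T8. Of 55359 identifiers, 52083 were matched to GENCODE M21 on GRCm38, and the other 3276 held 0.203% to 0.486% of the counts of a library.

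Genes passing filterByExpr were tested in R 4.3.3 with edgeR 4.0.16 (TMM, quasi-likelihood F test, Benjamini-Hochberg adjustment over all genes tested, FDR 0.1, 2 libraries per group). CPM were scaled by the TMM factors (1.05 and 1.01 in the EV-RV libraries, 0.975 and 0.964 in the IRF4-RV libraries). TPM used the union of annotated exons. SE is the size of the log2 fold change over the square root of F. Replicates differed by more than sampling noise (chi-square per degree of freedom 14.1 for EV-RV and 13.1 for IRF4-RV). The procedure was tested on simulated data.

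The 10 genes and all lists were chosen with earlier results of these data known, so no list was tested as a set. All 10 were named. From each other list up to 4 called genes with the largest change were named, given a mean of at least 50 counts and groups that did not overlap. *Ptpn11*, *Ptprc*, *Csk*, *Lyn*, *Fcgr3*, *St6gal1*, *Pira2* and genes overlapping a listed gene were named whatever their values, and other genes named in passing, such as *Vsir* and *Cd79a*, were chosen after their values were seen. Promoter windows came from RefSeq. A search for inhibition motifs in protein sequences was not run. Alternatives were DESeq2 1.42.0, edgeR with DESeq2 size factors, an FDR of 0.05, library size only, all genes of at least 1 count, at least 10 counts in every library, a replicate block, leaving out each library in turn, and the longest transcript as length.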

Additional observations from a re-analysis of the deposited data

How the results depend on the processing

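The calls of *Siglecg*, *Fcgr2b* and *Cd22*, and the absence of a call for the other 5 genes tested, held under every alternative run, which gave 3 genes higher and 0 lower each time. Among uncalled genes the sign turned for *Ptpn6* with library size only (-0.0679) and without EV-RV replicate 2 (-0.0433, range -0.0433 to 0.0889 over the omissions), for *Inpp5d* without IRF4-RV replicate 2 (0.0128, range -0.17 to 0.0128), for *Cd5* without EV-RV replicate 1 (0.14, range -0.88 to 0.14) and for *Ptpn22* without EV-RV replicate 1 (0.26, range -0.30 to 0.26). Genes called over the whole table numbered 4349, from 3347 at an FDR of 0.05 to 6394 with the replicate block. When single libraries were omitted, the genes called numbered 3 to 5 in the list of other phosphatases (5 with all libraries) and 1 to 4 in that of inhibitory kinases, adaptors and ligases (6 with all libraries), the latter being 2 with library size only. The list of activating counterparts held 2 calls instead of 1 with library size only, with all genes of at least 1 count, with at least 10 counts in every library and with the replicate block. With the block, calls numbered 14 instead of 9 among ligands and ligand-making enzymes and 13 instead of 8 in B cell receptor activation. The replicates share only a number, and deviations of same-numbered libraries had a Pearson's r of 0.284 over 14637 genes (genes are not independent replicates). The block changed no call of the listed genes. The causes of these shifts were not tested. The summed counts of *Pirb* and its relatives did not pass the filter, so that alternative gave no value. Leaving out a library leaves 1 in its group, which is then assumed to vary like the other group. With 2 libraries per group and counts under 100, *Cd5* and *Ptpn22* were limited by depth, and *Pirb* and *Lair1* could not be compared.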
